A study of Mus musculus with 25 samples.

Results

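Triacylglycerol stored in the lipid droplet of the fat cell is broken down by 3 lipases in sequence, and the proteins that coat the droplet decide how much of it they can reach. Expression of 10 genes of this machinery was followed in the white fat of wild type and *Acod1*-/- mice. They are the lipase genes *Pnpla2*, *Lipe*, *Mgll* and *Pnpla3*, the lipase co-activator *Abhd5*, the lipase inhibitor *G0s2*, and the droplet proteins *Plin1*, *Plin4*, *Plin5* and *Cidec*. The genes were chosen by name for their function, and each was found once among the 54752 genes of the count files, of which 54723 have a symbol. All 10 passed the filter on low counts in both depots.

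In a fat cell, PNPLA2 (also called ATGL) removes the first fatty acid, hormone-sensitive lipase (HSL, encoded by *Lipe*) the second, and monoacylglycerol lipase (*Mgll*) the last. Under basal conditions perilipin 1 (*Plin1*) holds ABHD5 (CGI-58) at the droplet surface. When beta-adrenergic signals activate protein kinase A, perilipin 1 is phosphorylated and ABHD5 is released to activate PNPLA2, while G0S2 binds PNPLA2 and inhibits it. CIDEC (FSP27) fuses droplets and favours the large single droplet of white fat cells, and perilipin 5 is best known from oxidative tissues, where it brings droplets and mitochondria together.

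RNA had been sequenced from snap-frozen epididymal (eWAT) and inguinal (iWAT) white adipose tissue of male C57BL/6N mice (C57BL/6NJ in the treatment description), as 25 libraries in 6 groups. In eWAT these were 4 libraries of wild type mice on normal diet (ND), 5 of wild type mice on high-fat diet (HFD, 60% of calories from fat) and 5 of HFD-fed *Acod1*-/- mice, and in iWAT 3, 5 and 3 libraries of the same kinds. Feeding started at 5 weeks of age and lasted 16 weeks, except that the labels of *Acod1*-/- replicates 2 and 3 in iWAT give 17 and 18 weeks. *Acod1* encodes the enzyme that makes itaconate, and the knockout is not restricted to a cell type. No ND-fed *Acod1*-/- library was analysed here, so genotype was compared on HFD alone.

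Each library held 31.41 to 52.34 M reads assigned to genes, with a median of 42.09 M. *Acod1* itself had 0 to 9 counts in wild type and 0 to 2 in *Acod1*-/- libraries, too few to check the labels. The column headers place 14 libraries in 1 series of library numbers and 11 in another. The second series holds every ND library and 1 library of each HFD group, so diet and series nearly coincide. The 12 adipocyte marker genes had counts in every library, and their summed level ran from 19015 to 50739 CPM, the count of a gene as a part of its library's normalized total. Epididymis markers reached 7682 CPM in 1 ND library of eWAT and were at most 0.380 CPM in iWAT. B cell markers summed to 489 to 727 CPM in the 3 ND libraries of iWAT and to at most 50.1 CPM in any other library, and skeletal muscle markers reached 7125 CPM in 1 ND library of iWAT. In whole tissue, fewer fat cells and less RNA per fat cell cannot be told apart.

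With TMM scaling, *Pnpla3*, *Lipe*, *Plin1* and *Plin4* were lower in eWAT on HFD than on ND. They were also higher in *Acod1*-/- than in wild type mice on HFD. Relative to adipocyte markers, *Pnpla3* alone of the 4 was still called for diet and none for genotype. With the library-number series, which nearly coincides with diet, as a term, *Pnpla3* alone of the 4 kept its diet call. The sequences just upstream of the start sites of the 4 genes are shown to set them side by side. They are the 250 bases before each start site in RefSeq (GRCm38.p6), written 5′ to 3′ along the gene, with the letters of a searched motif in capitals. *Pnpla3* lies on the plus strand (chr15:84167566-84167815), and *Lipe* (chr7:25395988-25396237 and, for another start, chr7:25390113-25390362), *Plin1* (chr7:79732777-79733026) and *Plin4* (chr17:56109783-56110032) on the minus strand.
Pnpla3: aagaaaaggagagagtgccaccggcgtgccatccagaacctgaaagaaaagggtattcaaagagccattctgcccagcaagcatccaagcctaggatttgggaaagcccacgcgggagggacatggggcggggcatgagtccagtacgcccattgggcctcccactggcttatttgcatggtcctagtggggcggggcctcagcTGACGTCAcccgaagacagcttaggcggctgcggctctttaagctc
Lipe, upstream start: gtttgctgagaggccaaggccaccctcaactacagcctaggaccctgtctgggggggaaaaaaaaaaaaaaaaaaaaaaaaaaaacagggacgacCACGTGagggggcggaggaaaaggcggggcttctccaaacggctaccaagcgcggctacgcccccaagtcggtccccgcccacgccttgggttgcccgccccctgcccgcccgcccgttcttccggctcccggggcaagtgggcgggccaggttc
Lipe, downstream start: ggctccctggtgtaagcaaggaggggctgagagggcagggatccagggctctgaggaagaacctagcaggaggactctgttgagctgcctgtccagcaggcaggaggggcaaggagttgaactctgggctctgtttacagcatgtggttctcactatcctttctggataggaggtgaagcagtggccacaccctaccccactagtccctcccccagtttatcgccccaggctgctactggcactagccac
Plin1: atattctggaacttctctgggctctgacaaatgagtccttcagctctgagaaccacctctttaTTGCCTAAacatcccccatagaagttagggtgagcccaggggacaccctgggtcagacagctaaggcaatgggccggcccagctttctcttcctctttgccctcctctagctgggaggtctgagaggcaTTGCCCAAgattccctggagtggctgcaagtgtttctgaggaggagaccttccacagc
Plin4: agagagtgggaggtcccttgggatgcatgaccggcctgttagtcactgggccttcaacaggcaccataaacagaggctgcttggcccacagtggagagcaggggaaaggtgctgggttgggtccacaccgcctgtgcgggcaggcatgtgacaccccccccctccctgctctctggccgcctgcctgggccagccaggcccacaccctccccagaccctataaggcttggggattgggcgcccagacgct

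The 4 genes had no searched motif in common in these windows. *Pnpla3* held the cAMP response element TGACGTCA 46 bases before the start, *Lipe* an E-box, CACGTG, 155 bases before its upstream start, and *Plin1* 2 C/EBP motifs, TTGCNNAA, 187 and 58 bases before the start, while *Plin4* and the downstream *Lipe* window held none. Of 32851 promoter windows of the same length, 1.55% held the cAMP response element, 6.02% the E-box and 9.56% the C/EBP motif on either strand. The nuclear receptor half-site AGGTCA (14% of windows) was found among the 10 genes in *Abhd5* and *Plin5*, an E-box also in *Mgll* and a C/EBP motif also in *Cidec*. The sterol motif TCACNCCAC (1.05% of windows) and the box TATAAA (12.4%) were in none of the 14 windows of the 10 genes. A match describes the letters of a window and shows no binding, and a window without a match says nothing about a factor.

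Levels of different genes were compared per kilobase of transcript (CPM per kilobase). *Cidec* was the highest of the 10 in all 6 groups, from 1044 ± 184 (SD, n = 3) in ND-fed iWAT to 2021 ± 177 (SD, n = 5) in eWAT of HFD-fed *Acod1*-/- mice. *Pnpla2* was second in every group but iWAT of *Acod1*-/- mice, where the mean of *Mgll* (771) lay above that of *Pnpla2* (722). *Plin4* and *Plin1* came close together, at 464 ± 58.7 and 449 ± 69.5 in ND-fed eWAT (SD, n = 4), a difference smaller than their spread. *Lipe*, *G0s2* and *Pnpla3* followed, then *Abhd5* at 24.9 to 30.2, and *Plin5* was last everywhere, at 2.66 to 12. Reads of *Plin4* could be shared with *Hdgfl2* on the opposite strand, whose exons overlap it (at most 1916 counts), and those of *Lipe*, *Abhd5* and *Mgll* with antisense genes (at most 464 counts), since it is not stated whether counting used strand. *Plin4* and *Plin5* are neighbours on chromosome 17, 1797 bases apart.

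**Figure D1:**
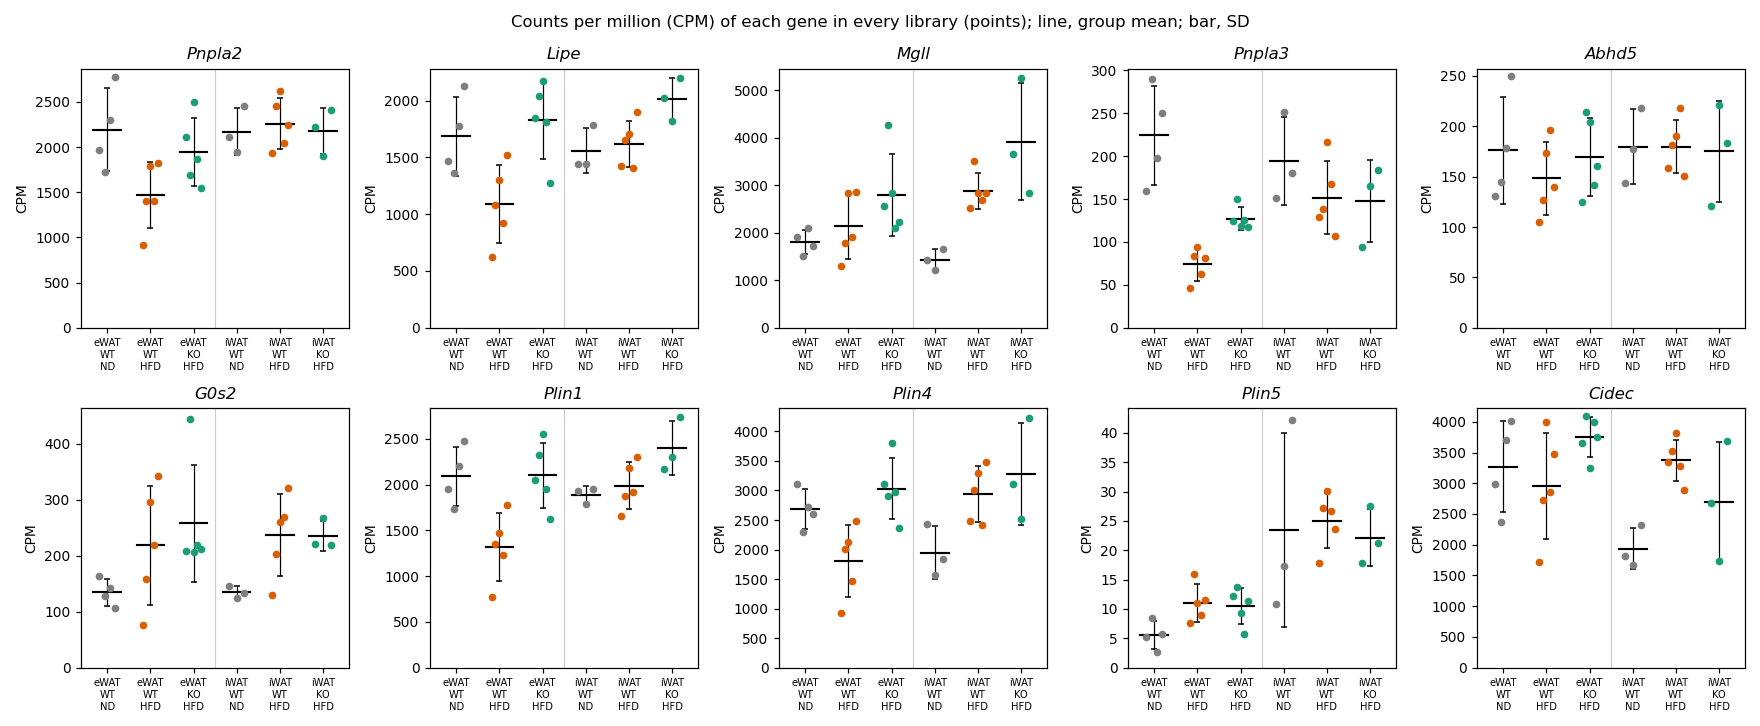
Level of each of the 10 genes, in CPM on a linear axis from 0, in every library of the 6 groups (WT, wild type; KO, *Acod1*-/-). Points are libraries, the line is the group mean and the bar the SD. In eWAT the HFD-fed wild type points of *Pnpla3* (46.8 to 94.7 CPM) lie below all ND points (159 to 290 CPM) and all *Acod1*-/- points (117 to 150 CPM), and *Plin5* is lower in eWAT than in iWAT on ND.

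In eWAT of wild type mice, 5 of the 10 genes were lower on HFD than on ND, *Pnpla3*, *Plin1*, *Lipe*, *Pnpla2* and *Plin4*, and *Plin5* was higher. With libraries scaled to adipocyte markers, *Pnpla3* alone of the 5 stayed called lower. Calls are at a Benjamini-Hochberg adjusted p under 0.1 in edgeR's quasi-likelihood test over all genes tested, and log2 fold changes carry the standard error (SE) of the fit. The median log2 change of the 10 genes was -0.41, beside -0.038 over all genes. Diet moved 51.8% of all 14936 genes tested in this depot (26.9% lower, 24.8% higher), so that 6 of 10 is near the share of all genes.

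Among the lipases, *Pnpla3* moved most. This gene encodes adiponutrin, a relative of PNPLA2 that is regulated by feeding. It stood at 159, 290, 198 and 250 CPM in the ND libraries and at 46.8, 83.8, 94.7, 62.8 and 81.4 CPM in the HFD libraries, and the groups did not overlap. Its log2 fold change was -1.60 ± 0.20 (SE, adjusted p = 0.000261). *Pnpla2*, which starts lipolysis, was at 1966, 1725, 2305 and 2777 CPM on ND and at 919, 1404, 1794, 1407 and 1819 CPM on HFD, with 2 HFD libraries inside the ND range. It fell by 0.58 on the log2 scale (SE 0.21, adjusted p = 0.0420). *Lipe* ran from 1360 to 2131 CPM on ND (median 1623 CPM) and from 622 to 1525 CPM on HFD (median 1080 CPM), and 1 HFD library lay in the ND range. Its log2 fold change was -0.63 ± 0.24 (adjusted p = 0.0472). *Mgll* was at 1510 to 2094 CPM on ND and 1299 to 2854 CPM on HFD, and its log2 fold change of 0.24 ± 0.25 did not pass the test (adjusted p = 0.466).

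The 2 regulators of PNPLA2 were not called. *Abhd5* was at 131 to 250 CPM on ND and 105 to 196 CPM on HFD (log2 fold change -0.24 ± 0.23, adjusted p = 0.398). *G0s2* was at 164, 128, 142 and 106 CPM on ND and 76.6, 158, 296, 219 and 343 CPM on HFD. HFD library 1, the lowest of its group for all 10 genes, also had the lowest adipocyte marker sum (19015 CPM) and the highest macrophage marker sum (4051 CPM) of the 25. The log2 fold change of *G0s2* was 0.70 ± 0.36 (adjusted p = 0.134) with it and passed the test without it (adjusted p = 0.0232).

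The droplet proteins moved in both directions. *Plin1*, the main coat protein of the white fat cell's droplet, was at 1947, 1730, 2202 and 2478 CPM on ND and at 768, 1351, 1475, 1236 and 1780 CPM on HFD, with 1 HFD library inside the ND range (log2 fold change -0.66 ± 0.21, adjusted p = 0.0232). *Plin4*, another coat protein of fat cells, was at 3114, 2294, 2713 and 2605 CPM on ND and at 931, 2001, 2127, 1464 and 2486 CPM on HFD (log2 fold change -0.57 ± 0.24, adjusted p = 0.0653), again with 1 HFD library inside the ND range. *Plin5* rose from 5.30, 8.46, 2.68 and 5.74 CPM to 7.63, 16.0, 11.1, 8.94 and 11.5 CPM (log2 fold change 0.99 ± 0.33, adjusted p = 0.0255), with 1 HFD library below the highest ND library and at a level far below the other perilipins. *Cidec* was at 2374 to 4012 CPM on ND and 1720 to 3998 CPM on HFD, and its log2 fold change of -0.14 ± 0.22 did not pass (adjusted p = 0.616).

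**Figure D2:**
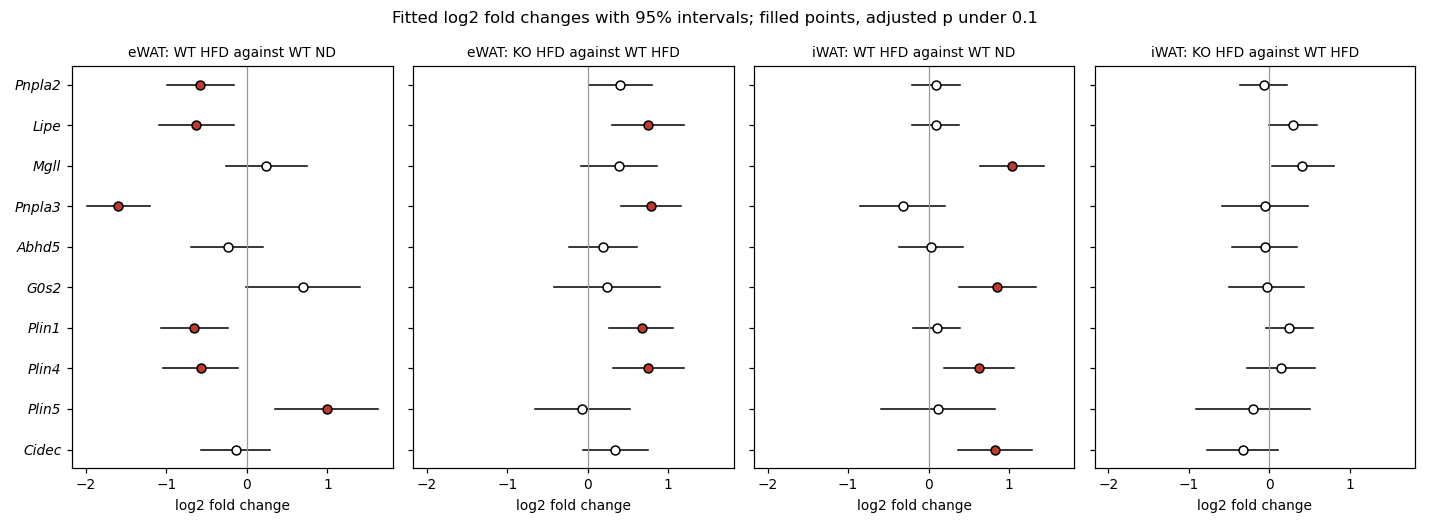
Fitted log2 fold changes of the 10 genes (horizontal axis) with approximate 95% intervals for diet and genotype in each depot. The intervals use a normal approximation and are narrower than the test implies. Filled points have an adjusted p under 0.1. In eWAT *Lipe*, *Pnpla3*, *Plin1* and *Plin4* lie left of 0 for diet and right of 0 for genotype (*Plin1* at -0.04 for genotype when scaled to adipocyte markers), in iWAT *Mgll*, *G0s2*, *Plin4* and *Cidec* lie right of 0 for diet, and no point is filled for genotype in iWAT.

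In HFD-fed *Acod1*-/- mice, 4 genes were higher in eWAT than on the same diet in wild type mice, *Pnpla3*, *Plin4*, *Lipe* and *Plin1*, and none was lower. With libraries scaled to adipocyte markers these 4 calls ended and the sign of *Plin1* turned, as the values relative to these markers show. Genotype moved 19.9% of all genes tested in eWAT, and 9.13% were higher in *Acod1*-/- mice. The median log2 change of the 10 genes was 0.40, beside 0.044 over all genes. The study chose *Pnpla3* and *Lipe* for display on these same libraries, so their direction is not independent evidence.

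*Pnpla3* ran from 117 to 150 CPM in the 5 *Acod1*-/- libraries (median 124 CPM), above every HFD-fed wild type library (at most 94.7 CPM) and below every ND library (at least 159 CPM). Its log2 fold change was 0.78 ± 0.19 (adjusted p = 0.0208). *Lipe* was at 1847, 2039, 2175, 1812 and 1271 CPM (log2 fold change 0.75 ± 0.23, adjusted p = 0.0481). All but the last of these 5 libraries lay above the highest HFD-fed wild type library (1525 CPM). *Plin1* was at 2051, 2322, 2548, 1957 and 1626 CPM (log2 fold change 0.67 ± 0.20, adjusted p = 0.0471) and *Plin4* at 3104, 2912, 3803, 2969 and 2368 CPM (0.75 ± 0.23, adjusted p = 0.0469). In *Lipe*, *Plin1* and *Plin4* alike, only *Acod1*-/- library 5 fell within the range of the wild type group, and it had the highest macrophage marker sum (1286 CPM) and the lowest adipocyte marker sum (33446 CPM) of its group.

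The other 6 genes did not pass the test. *Pnpla2* was at 1552 to 2499 CPM in *Acod1*-/- mice (log2 fold change 0.40 ± 0.20, adjusted p = 0.202), *Mgll* at 2106 to 4259 CPM (0.39 ± 0.24, adjusted p = 0.303) and *Cidec* at 3255 to 4092 CPM (0.34 ± 0.21, adjusted p = 0.294). *Abhd5* was at 125 to 214 CPM (0.19 ± 0.21, adjusted p = 0.597), *G0s2* at 206 to 445 CPM (0.24 ± 0.34, adjusted p = 0.682) and *Plin5* at 5.76 to 13.7 CPM (-0.07 ± 0.30, adjusted p = 0.902). For *Plin5*, which diet had raised, the approximate 95% interval of the genotype difference ran from -0.66 to 0.52 on the log2 scale. It rests on a normal approximation that is too narrow for so few libraries.

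Most macrophage markers moved opposite to *Pnpla3*, *Lipe*, *Plin1* and *Plin4* in eWAT, while *Plin5*, like most of these markers, rose with diet. Of 10 markers, 9 rose and 1 fell with diet, and 9 fell with genotype. Their summed level ran from 448 to 839 CPM on ND, from 1225 to 4051 CPM in HFD-fed wild type mice and from 351 to 1286 CPM in *Acod1*-/- mice. The adipocyte marker sum ran from 27234 to 40947, from 19015 to 41448 and from 33446 to 47098 CPM. Of the 12 adipocyte markers, 4 fell and 2 rose with diet, and 5 rose with genotype, *Cfd*, *Retn*, *Pck1*, *Slc2a4* and *Adipoq*.

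When libraries were scaled to the geometric mean of the 12 adipocyte markers in place of edgeR's TMM factors, the calls of *Lipe*, *Pnpla3*, *Plin1* and *Plin4* for genotype ended. Their log2 fold changes were then 0.05, 0.08, -0.04 and 0.08, and 3 other genes were called lower in *Acod1*-/- mice, *Mgll* (-0.33), *Abhd5* (-0.58) and *Plin5* (-0.82). Of all genes, 65.4% were called under this scaling, and their median moved to -0.75. For diet, *Pnpla3* stayed lower (-1.11, adjusted p = 0.00510) and *Plin5* higher (1.47, adjusted p = 0.0143). *Mgll* (0.73) and *G0s2* (1.07) were called higher, and *Lipe* (-0.12), *Pnpla2* (-0.04), *Plin1* (-0.15) and *Plin4* (-0.11) were no longer called (46.9% of all genes called, median 0.58). The markers used for this scaling themselves moved with diet and genotype.

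**Figure D3:**
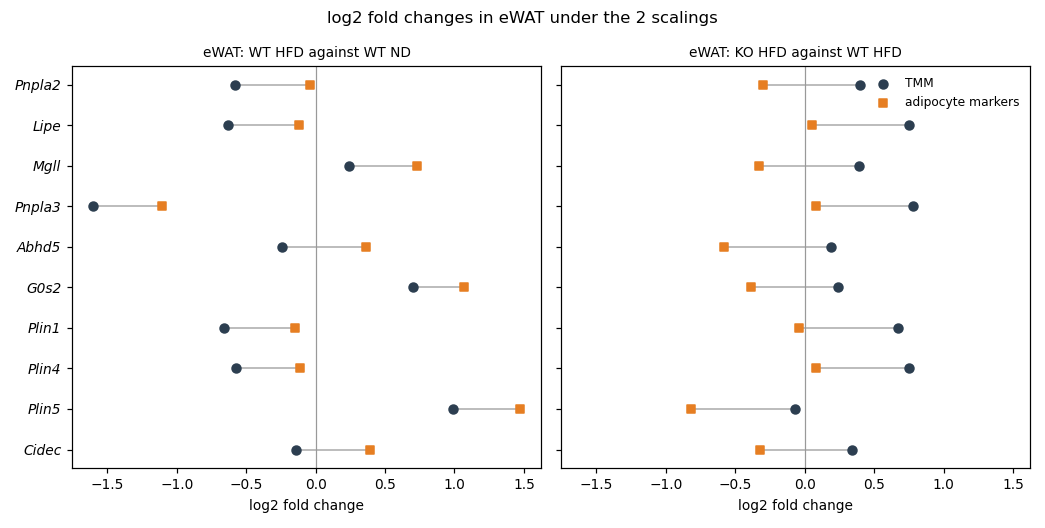
Log2 fold changes in eWAT (horizontal axis) of the 10 genes for diet (left) and genotype (right), with libraries scaled by TMM (circles) and to the 12 adipocyte markers (squares). *Pnpla3* stays at -1.11 for diet, and the genotype values of *Lipe*, *Pnpla3*, *Plin1* and *Plin4* move from 0.67 to 0.78 down to -0.04 to 0.08.

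**Figure D4:**
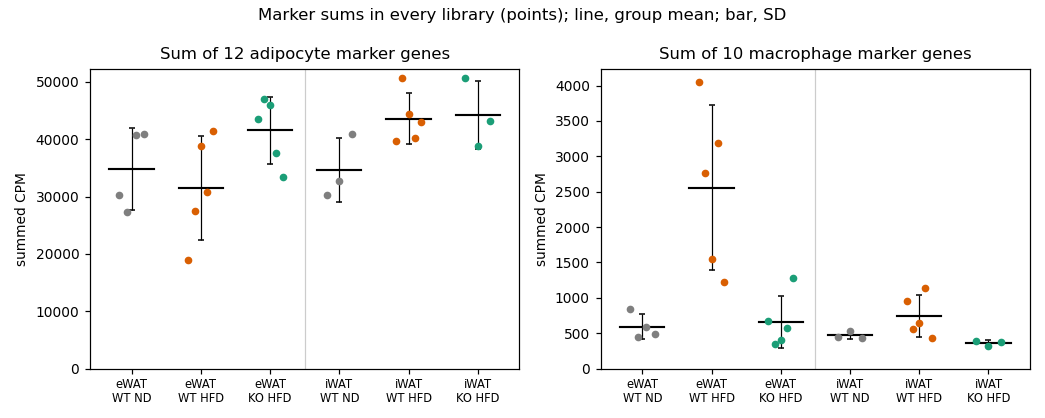
Summed CPM of 12 adipocyte marker genes (left) and 10 macrophage marker genes (right) in every library, on linear axes from 0. Points are libraries, lines group means and bars SDs. Macrophage sums of HFD-fed wild type eWAT (1225 to 4051 CPM) stand above those of ND (448 to 839 CPM), and only 1 *Acod1*-/- library (1286 CPM) reaches their range.

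Single libraries decided some of these calls. Without HFD-fed wild type library 4, or without *Acod1*-/- library 3, only *Pnpla3* was called for genotype in eWAT, and the adjusted p of *Lipe*, *Plin1* and *Plin4* lay between 0.101 and 0.113. For diet, *Lipe* and *Pnpla2* were not called without ND library 4 (adjusted p = 0.140 and 0.133), *Lipe* and *Plin4* not without HFD library 4 (0.101 and 0.138), and *Plin4* not without ND library 1 (0.131) or ND library 3 (0.109). *G0s2* was also called for diet without *Acod1*-/- library 2 (adjusted p = 0.0936). With the library-number series as a term, diet kept the calls of *Pnpla3* (-1.58, adjusted p = 0.00547) and *Plin5* (1.09, adjusted p = 0.0872) alone. The share of all genes called with this term was not computed. Diet and series nearly coincide, so a lost call does not tell the 2 apart. Among the HFD libraries of the first series, 4 of each genotype, the genotype log2 fold changes of *Lipe*, *Pnpla3*, *Plin1* and *Plin4* were 0.99, 0.83, 0.86 and 0.96, and all 4 were called.

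Compared with ND-fed wild type mice, HFD-fed *Acod1*-/- mice differed in 3 of the 10 genes in eWAT, where 26.5% of all genes were called. *Pnpla3* was lower (log2 fold change -0.82 ± 0.20, adjusted p = 0.0193) and *G0s2* (0.93 ± 0.36, adjusted p = 0.0909) and *Plin5* (0.92 ± 0.33, adjusted p = 0.0663) were higher. The groups were apart for *Pnpla3* and *G0s2*, whose *Acod1*-/- libraries (206 to 445 CPM) all lay above the ND libraries (106 to 164 CPM). They were apart for *Mgll* too, which was not called (adjusted p = 0.104). The share of all genes whose groups were apart was not computed for any comparison. *Pnpla3* alone was called without ND library 1, 3 or 4 or without *Acod1*-/- library 2, and none was called with the series, which nearly coincides with diet, as a term. In all, the call of *G0s2* was lost without any 1 of 7 of the 14 libraries and that of *Plin5* without any 1 of 6. This comparison shares its groups with the 2 before it.

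In iWAT of wild type mice, HFD raised 4 genes, *Mgll*, *Cidec*, *G0s2* and *Plin4*, and lowered none. Diet moved 50.1% of all 14801 genes tested in this depot (25.9% higher), so 4 of 10 is not above the share of all genes. Markers of many other cell types moved with diet in the same libraries. Of those tested, 7 of 10 macrophage, 5 of 5 endothelial and 5 of 6 fibroblast markers rose, while 5 of 5 B cell, 5 of 5 T cell, 5 of 5 skeletal muscle and 5 of 6 brown adipocyte markers fell, and 3 of 12 adipocyte markers rose and 3 fell. Skeletal muscle marker sums were 7125, 5.50 and 275 CPM on ND and 18.4 to 298 CPM on HFD, so only 1 ND library lay above the HFD range. The summed adipocyte markers ran from 30338 to 40862 CPM on ND and from 39762 to 50739 CPM on HFD. The part of other cell types in the changes of the 10 genes was not tested. *Mgll*, which completes lipolysis and also degrades the endocannabinoid 2-arachidonoylglycerol, was at 1433, 1212 and 1648 CPM on ND and at 2514, 3521, 2846, 2693 and 2832 CPM on HFD. Its log2 fold change was 1.04 ± 0.21 (adjusted p = 0.00245), and the groups did not overlap. *Cidec* was at 1823, 1670 and 2322 CPM on ND and at 3344, 3524, 3813, 3286 and 2885 CPM on HFD, again apart (log2 fold change 0.83 ± 0.23, adjusted p = 0.0154). *G0s2* was at 146, 125 and 133 CPM on ND and at 130, 204, 261, 270 and 321 CPM on HFD, with 1 HFD library in the ND range (0.85 ± 0.24, adjusted p = 0.0164). *Plin4* was at 2437, 1565 and 1839 CPM on ND and at 2420 to 3474 CPM on HFD (0.63 ± 0.22, adjusted p = 0.0418), and it was not called without ND library 2 (adjusted p = 0.172) or ND library 3 (0.114).

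The 3 other lipases, *Abhd5*, *Plin1* and *Plin5* did not pass the test for diet in iWAT. *Lipe* was at 1440 to 1786 CPM on ND and 1408 to 1896 CPM on HFD (log2 fold change 0.09 ± 0.15, adjusted p = 0.671). The approximate 95% intervals of *Lipe* (-0.21 to 0.38), *Pnpla2* (-0.21 to 0.39) and *Plin1* (-0.19 to 0.39) reached no more than 0.39 on either side of 0. They rest on a normal approximation that is too narrow for so few libraries, so somewhat larger changes are not excluded. *Pnpla2* was at 1951 to 2452 and 1938 to 2617 CPM (0.09 ± 0.15, adjusted p = 0.666), and *Plin1* at 1787 to 1953 and 1660 to 2304 CPM (0.10 ± 0.15, adjusted p = 0.598). *Pnpla3* was at 151, 251 and 180 CPM on ND and 107 to 217 CPM on HFD (-0.32 ± 0.27, adjusted p = 0.359). *Abhd5* was at 144 to 218 and 151 to 218 CPM (0.03 ± 0.21, adjusted p = 0.917).

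*Plin5* in iWAT was at 10.9, 17.3 and 42.2 CPM on ND and at 17.8, 27.2, 30.1, 26.7 and 23.6 CPM on HFD (log2 fold change 0.12 ± 0.36, adjusted p = 0.814). ND library 3, at 42.2 CPM, also had the highest brown adipocyte marker sum of all libraries, 1350 CPM, against 181 and 458 CPM in the other 2. Without that library the log2 fold change of *Plin5* was 0.83 (adjusted p = 0.0320). The part of brown adipocyte RNA in this value was not tested.

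Between HFD-fed *Acod1*-/- and wild type mice, none of the 10 genes was called in iWAT. edgeR's quasi-likelihood test called 0% of all genes in this comparison, though 2468 had an unadjusted p under 0.05, and DESeq2's Wald test called 1072 genes, none of the 10 among them. *Mgll* was at 3652, 5255 and 2831 CPM in *Acod1*-/- mice (log2 fold change 0.41 ± 0.20, adjusted p = 0.317) and *Lipe* at 2025, 1824 and 2198 CPM (0.29 ± 0.15, adjusted p = 0.353). *Plin1* was at 2169 to 2733 CPM (0.25 ± 0.15, adjusted p = 0.417), *Plin4* at 2517 to 4224 CPM (0.14 ± 0.22, adjusted p = 0.792) and *Cidec* at 2674, 1740 and 3693 CPM (-0.33 ± 0.23, adjusted p = 0.493). *Pnpla2* (-0.07 ± 0.15), *Pnpla3* (-0.06 ± 0.27), *Abhd5* (-0.06 ± 0.21), *G0s2* (-0.03 ± 0.24) and *Plin5* (-0.20 ± 0.36) had adjusted p-values from 0.833 to 0.964. Without *Acod1*-/- library 3, *Mgll* (adjusted p = 0.0618) and *Cidec* (0.0771) were called, as they were among the libraries of the first series alone, which holds the other 2 *Acod1*-/- libraries. *Acod1*-/- library 2, with the highest *Mgll* and lowest *Cidec*, held 559 CPM of mammary and skin epithelium markers. Libraries 1 and 3 held 6.14 and 7.76 CPM, and HFD-fed wild type libraries at most 12.2 CPM. The part of this tissue in these calls was not tested. Against ND-fed wild type mice, *Acod1*-/- mice had higher *Mgll* (1.45 ± 0.23, adjusted p = 0.00108), *G0s2* (0.82 ± 0.26, adjusted p = 0.0420) and *Plin4* (0.77 ± 0.24, adjusted p = 0.0386), with all 3 apart. *Lipe* and *Plin1* were apart as well, though not called, and the share of all genes apart between these groups was not computed. In that comparison 34.6% of all genes were called, and 18.5% were higher in *Acod1*-/- mice. Without ND library 2 *Mgll* alone was called, without *Acod1*-/- library 3 *Plin4* was not (adjusted p = 0.101), and without *Acod1*-/- library 2 *Lipe* and *Cidec* were called as well.

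The response to diet differed between the depots for 5 of the 10 genes when the 25 libraries were fitted together (15034 genes tested). The difference is that of the diet log2 fold change in eWAT minus that in iWAT, and it was negative for *Pnpla3* (-1.25 ± 0.35, adjusted p = 0.0136), *Plin4* (-1.17 ± 0.33, adjusted p = 0.0157), *Cidec* (-0.94 ± 0.32, adjusted p = 0.0381), *Plin1* (-0.73 ± 0.27, adjusted p = 0.0535) and *Pnpla2* (-0.64 ± 0.27, adjusted p = 0.0979). In this test 29.0% of all genes were called, 15% with a negative difference. *Plin4* was lower with HFD in eWAT and higher in iWAT, each change past the test. Without ND library 2 of iWAT, *Pnpla3* and *Plin4* alone were called, and scaled to adipocyte markers *Plin4* (-0.60, adjusted p = 0.0990) was the one of the 5 still called, beside *Plin5* with a positive difference. The call of *Pnpla2* was lost without any 1 of 13 of the 25 libraries, and also with DESeq2's size factors (adjusted p = 0.102), with the filter on low counts dropped (0.189) and with the series in the fit (0.101). *Plin1* was also not called without ND library 4 of eWAT (0.110).

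On ND the depots differed in 2 of the 10 genes (31.7% of all genes). *Plin5* was lower in eWAT (2.68 to 8.46 CPM) than in iWAT (10.9 to 42.2 CPM), with a log2 difference of -2.08 ± 0.39 (adjusted p = 0.000501). Without ND library 3 of iWAT, which held the most brown adipocyte markers, it was -1.35 (adjusted p = 0.0120). All 6 brown adipocyte markers were lower in eWAT on ND, with sums of 12.6 to 27.1 CPM against 181 to 1350 CPM in iWAT, and their part in the difference was not tested. *Cidec* was higher in eWAT (log2 difference 0.75 ± 0.25, adjusted p = 0.0298), and both genes were apart (share of all genes not computed). Without ND library 2 of iWAT, *Cidec* was not called (adjusted p = 0.140). In HFD-fed wild type mice 6 genes were lower in eWAT, where 18.6% of all genes were called and 7.75% lower. These were *Pnpla3* (-1.04 ± 0.22, adjusted p = 0.00417), *Plin5* (-1.18 ± 0.32, adjusted p = 0.0178), *Pnpla2* (-0.62 ± 0.17, adjusted p = 0.0204), *Plin1* (-0.59 ± 0.17, adjusted p = 0.0259), *Plin4* (-0.70 ± 0.21, adjusted p = 0.0315) and *Lipe* (-0.57 ± 0.19, adjusted p = 0.0509). *Lipe* was not called without HFD library 1 or 4 of eWAT (adjusted p = 0.140 and 0.133) or HFD library 3 or 5 of iWAT (0.108 and 0.120). Macrophage markers stood the other way, 9 of 10 being higher in eWAT. Scaled to adipocyte markers, none of the 6 genes was called, their log2 differences ran from -0.54 to 0.00, and *Cidec* was called higher in eWAT.

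In HFD-fed *Acod1*-/- mice none of the 10 genes was called between depots by edgeR's quasi-likelihood test, which called 3.81% of all genes (573), with 2092 at an unadjusted p under 0.05. *Plin5* alone had an unadjusted p under 0.05 (0.00654), and DESeq2's Wald test called it. A difference of the genotype response between depots was not shown. That test called 0.00665% of all genes (1 gene) and none of the 10, with 1524 genes at an unadjusted p under 0.05, and DESeq2's Wald test called 96 genes, again none of the 10. Of the 10 genes, *Pnpla3* and *Cidec* had an unadjusted p under 0.05 (0.0237 and 0.0440).

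Ratios of partners were compared within each library, per kilobase, by exact two-sided permutation tests over libraries. The ratio of the inhibitor *G0s2* to its target *Pnpla2* was 0.290, 0.257, 0.213 and 0.132 in ND-fed eWAT, 0.289, 0.389, 0.572, 0.540 and 0.654 in HFD-fed wild type eWAT, and 0.285 to 0.912 in *Acod1*-/- eWAT. HFD moved it by 1.13 on the log2 scale in eWAT (exact permutation p = 0.0317) and 0.70 in iWAT (exact permutation p = 0.0714). The 12 tests of 3 ratios gave no adjusted p under 0.1, and the adjusted values of these 2 were 0.167 and 0.171. The ratio of *Pnpla3* to *Pnpla2* was apart between ND (0.158 to 0.328) and HFD-fed wild type eWAT (0.0871 to 0.116; log2 difference -1.01, exact permutation p = 0.0159, the smallest these group sizes allow, adjusted p = 0.167). The ratio of *Abhd5* to *Plin1* ran from 0.0616 to 0.124 in HFD-fed wild type and from 0.0476 to 0.0774 in *Acod1*-/- eWAT (log2 difference -0.51, exact permutation p = 0.0556, adjusted p = 0.167).

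**Figure D5:**
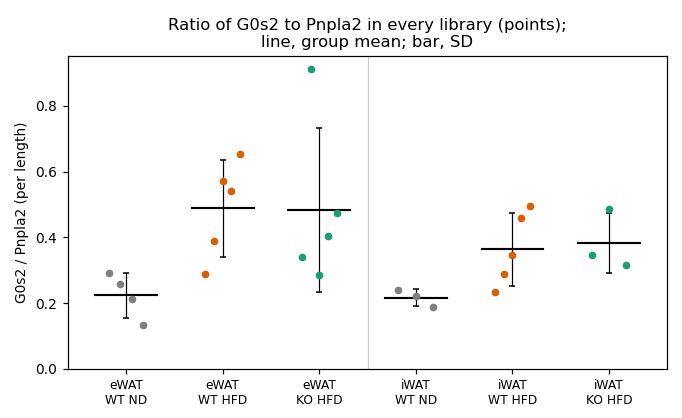
Ratio of *G0s2* to *Pnpla2* per kilobase of transcript in every library, on a linear axis from 0. Points are libraries, lines group means and bars SDs. HFD-fed wild type eWAT runs from 0.289 to 0.654 and touches the highest ND library (0.290).

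Among 14 other lipid droplet proteins, 12 were tested in eWAT, where 4 rose and 2 fell with diet and 1 rose and 2 fell with genotype (median log2 changes -0.00 and -0.15), beside 51.8% of all genes called for diet and 19.9% for genotype, so that both counts are near the share of all genes. *Plin2*, the perilipin found on droplets of most cell types, rose with diet from 307 ± 68.2 (SD, n = 4) to 1121 ± 311 CPM (SD, n = 5) (log2 fold change 1.87, adjusted p = 0.000382) and was lower in *Acod1*-/- mice at 576 ± 184 CPM (SD, n = 5; -0.96, adjusted p = 0.0224). *Hilpda*, an inhibitor of PNPLA2 that hypoxia induces, moved in the same directions (2.10, adjusted p = 0.000404, and -1.29, adjusted p = 0.0136). *Plin3* rose with diet (0.66, adjusted p = 0.000982) and *Ldah*, a droplet-associated hydrolase, was higher in *Acod1*-/- mice (0.38, adjusted p = 0.0369). The changes in this list and in the 2 related lists that follow use TMM scaling alone. Their values relative to adipocyte markers are not given, and the part of other cell types in them was not tested. In iWAT 6 of 14 rose and 1 fell with diet, beside 50.1% of all genes. *Cidea*, a relative of *Cidec* that is abundant in brown fat cells, fell (-2.87, adjusted p = 0.00110), *Cideb* rose from 0.171 to 2.81 CPM (adjusted p = 0.00241) and *Hsd17b13* from 0.00783 to 3.04 CPM (adjusted p = 0.000215).

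Of 7 other lipases and carriers, 1 rose and 3 fell with diet in eWAT, and 3 rose and 1 fell with genotype (medians -0.40 and 0.31), beside the same 51.8% and 19.9% of all genes. The diet count is near that share. *Ces1d*, a carboxylesterase that hydrolyses triacylglycerol in fat cells, fell with diet (-1.83, adjusted p = 0.000876) and was higher in *Acod1*-/- mice (1.26, adjusted p = 0.0178). The phospholipase *Ddhd2* moved likewise (-0.76, adjusted p = 0.000763, and 0.50, adjusted p = 0.0198), *Ces1f* fell with diet (-1.99, adjusted p = 0.00108), and *Lipa*, the lysosomal acid lipase, was lower in *Acod1*-/- mice (-1.91, adjusted p = 0.0168). Mean *Lipa* was 81.0 CPM on ND, 323 CPM in HFD-fed wild type and 86.1 CPM in *Acod1*-/- eWAT. Median macrophage marker sums there were 539, 2764 and 575 CPM, and their part in *Lipa* was not tested. In iWAT, where 50.1% of all genes were called, 2 rose and 3 fell with diet, among them *Ces1f* (-0.88, adjusted p = 0.00156), *Ces1d* (-0.73, adjusted p = 0.00537) and *Lipa* (1.02, adjusted p = 0.00749).

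Of 17 genes of hormonal control, 15 were tested. In eWAT 4 rose and 5 fell with diet, and 5 rose and none fell with genotype (medians -0.18 and 0.39), beside 51.8% and 19.9% of all genes. *Pde3b*, the phosphodiesterase through which insulin restrains lipolysis, fell from 636 ± 132 (SD, n = 4) to 218 ± 29.5 CPM (SD, n = 5) with diet (-1.54, adjusted p = 0.000223) and was at 420 ± 96.2 CPM (SD, n = 5) in *Acod1*-/- mice (0.94, adjusted p = 0.0110). *Acvr1c*, the receptor ALK7, fell with diet (-1.50, adjusted p = 0.000307) and the prostaglandin receptor *Ptger3* rose (1.69, adjusted p = 0.000670). *Adrb3*, the beta-adrenergic receptor of fat cells, was at 1100 ± 251 CPM on ND (SD, n = 4), 181 ± 99.5 CPM in HFD-fed wild type mice (SD, n = 5) and 867 ± 408 CPM in *Acod1*-/- mice (SD, n = 5; log2 fold change for genotype 2.26, adjusted p = 0.0144), and *Insr*, the insulin receptor, was higher with genotype (0.68, adjusted p = 0.0136). In iWAT 5 rose and 5 fell with diet (50.1% of all genes), with *Ptger3* (2.83, adjusted p = 5.64e-05), the natriuretic peptide clearance receptor *Npr3* (2.92, adjusted p = 0.00115) and the adenosine receptor *Adora1* (0.97, adjusted p = 0.00297) higher. For genotype in iWAT none of the 14, 7 and 15 genes tested in the 3 lists was called. The smallest adjusted p-values there belonged to *Adrb3* (1.84, adjusted p = 0.143), *Ptger3* (-0.66, 0.173) and *Insr* (0.29, 0.237), to *Ces1f* (0.61, 0.143), *Lipa* (-0.76, 0.173) and *Abhd6* (0.42, 0.311), and to *Cidea* (1.14, 0.264), *Plin2* (-0.55, 0.395) and *Bscl2* (-0.24, 0.587).

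The diet response also differed between depots in 6 of 13 other droplet proteins, 2 of 7 other lipases and carriers and 6 of 15 genes of hormonal control tested, beside 29.0% of all genes. For the lipases and carriers the count is near that share. *Acvr1c* (-1.38, adjusted p = 0.00206), *Npr3* (-2.12, adjusted p = 0.00612) and *Npr1* (-1.04, adjusted p = 0.00807) had a more negative response in eWAT, as did *Ces1d* (-1.07, adjusted p = 0.0509), *Ces1f* (-1.08, adjusted p = 0.0808) and *Cideb* (adjusted p = 0.0157), while *Lipa* did not pass (adjusted p = 0.220). *Cidea* (2.81, adjusted p = 0.00639) and *Aup1* (0.61, adjusted p = 0.00914) had a more positive one.

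Within groups, the genes whose log2 CPM deviated most alike over the 25 libraries were found among the 9721 genes whose mean reached 10 CPM. For *Lipe* (Pearson r = 0.961) and *Plin1* (0.944) it was the same gene, *Car3*, a carbonic anhydrase abundant in fat cells. It was *Phgdh* for *Plin4* (0.935), *Tcf15* for *Mgll* (0.920), *Rasd1* for *G0s2* (0.881), *Emc2* for *Cidec* (0.874), *Cs* for *Abhd5* (0.872), *Raver2* for *Pnpla2* (0.867), *Ppp1r3b* for *Plin5* (0.798) and *Gnb5* for *Pnpla3* (0.782). These values describe libraries that share their tissue make-up and were chosen as the highest of many.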

How the data were processed

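Directional mRNA libraries were sequenced, and the authors trimmed reads with cutadapt, filtered contaminants and aligned with STAR to the mouse genome (GRCm38). The counting program and its use of strand are not given in the sources used here. The authors deposited, for each library, read counts per gene, the cDNA length and FPKM values. The deposited FPKM values were checked to follow from the counts and lengths within 0.0005 and were not tested. Reads on no feature (6.41% to 11.88%) and ambiguous reads (1.52% to 2.07%) stayed out of library sizes. Gene IDs were joined to GENCODE symbols.

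Per depot, genes whose mean reached 1 CPM entered the tests, with TMM normalization and edgeR 4.0.16 (quasi-likelihood, R 4.3.3), with all libraries of a depot, or all 25 for depot comparisons, sharing 1 estimate of spread. Benjamini-Hochberg adjustment covered all genes tested, with calls at an adjusted p under 0.1. Printed CPM values use TMM over 25 libraries. Ratios were tested by exact permutation over libraries in scipy 1.17.1. DESeq2 1.42.0 served as an alternative. edgeR's test with TMM was tried on counts simulated from its own estimates. This covered diet and genotype in each depot and the difference of genotype responses. DESeq2 and the other settings were not tried in this way. The simulated libraries were independent and held no differences in tissue make-up or series, so the trial does not bear on how these affect the calls.

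All 10 genes were named with values, and in each related list the 3 genes with the smallest adjusted p. The genes, lists and tests were chosen with earlier results of these data known. Other settings were no filter, DESeq2's size factors or test, a stricter threshold, the library-number series as a term or its first part alone, scaling to adipocyte markers, only the groups compared, a replicate block and each library left out. Replicates are labelled as separate samples, and no 2 libraries of a group were copies (lowest chi-square per gene 33.7). The depth behind each CPM value is the 31.41 to 52.34 M counted reads of its library.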

Additional observations from a re-analysis of the deposited data

Results flagged for a closer look

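Among 52 groups of values tested for a library far from the rest of its group, 3 had one, where chance gives about 1 in 20. *Pnpla3* in *Acod1*-/- eWAT library 2 was at 150 CPM, against a group median of 124 CPM and a lowest value of 117 CPM. *G0s2* in the same library was at 445 CPM, with the others at 206 to 219 CPM. That library also had the highest share of mitochondrial reads (13.21%) and the fewest counted reads (31.41 M) of the 25, and its brown adipocyte markers summed to 110 CPM against 25.4 to 33.7 CPM in the rest of its group. Their part in these values was not tested. The ratio of *Pnpla3* to *Pnpla2* in ND-fed eWAT library 2 was 0.328, with the others at 0.158 to 0.176.

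The diet response differed between the depots, by the test of the difference itself, for *Pnpla3* (-1.25, adjusted p = 0.0136), *Plin4* (-1.17, adjusted p = 0.0157), *Cidec* (-0.94, adjusted p = 0.0381), *Plin1* (-0.73, adjusted p = 0.0535) and *Pnpla2* (-0.64, adjusted p = 0.0979), as log2 fold change in eWAT minus that in iWAT. B cell markers summed to 489 to 727 CPM and T cell markers to 200 to 325 CPM in the 3 ND libraries of iWAT that enter this difference, and to at most 50.1 and 53.8 CPM in any other library. Their part in it was not tested.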

How the results depend on the processing

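Over the fold changes reported for the 10 genes, 353 of 420 values under other settings kept their direction and side of the threshold, 44 lost and 6 gained a call, and 17 changed sign. The cause of these changes was not tested. Scaled to adipocyte markers, the sign changed in eWAT for *Abhd5* (0.36) and *Cidec* (0.39) with diet and for *Pnpla2* (-0.30), *Mgll* (-0.33), *Abhd5* (-0.58), *G0s2* (-0.39), *Plin1* (-0.04) and *Cidec* (-0.32) with genotype, in iWAT for *Lipe* (-0.01), *Pnpla2* (-0.00), *Abhd5* (-0.03) and *Plin1* (-0.00) with diet and *Plin4* (-0.07) with genotype, and for *Lipe* (0.00) between depots on HFD. With the series as a term *Abhd5* was at -0.03 for diet in iWAT, and in the first series alone *G0s2* was at 0.18 for genotype in iWAT and the log2 ratio of *G0s2* to *Pnpla2* at 0.01 for genotype in eWAT.

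The number of the 10 genes called became 3 without a filter and 2 with the series as a term (eWAT diet, 6 as reported), 1 without a filter (eWAT genotype, 4), and 2 in the first series (iWAT genotype, 0). The share of all genes called was not computed without a filter, with the series as a term or in the first series. For *Acod1*-/- against ND-fed mice it became 1, 1, 0 and 1 in eWAT (3 as reported) at an adjusted p under 0.05, without a filter, with the series and scaled to adipocyte markers, and 6, 5 and 1 in iWAT (3) with DESeq2's test, the series and the adipocyte scaling. Between depots it became 1 in place of 6 in HFD-fed wild type mice with the adipocyte scaling (*Cidec*, which is not among the 6) and 1 in place of 0 in *Acod1*-/- mice with DESeq2's test. For the difference of diet responses (5) it became 3, 3 and 2 at an adjusted p under 0.05, without a filter and with the adipocyte scaling. In eWAT the adipocyte scaling gave 4 called genes for diet and 3 for genotype, in part other genes. For diet *Pnpla3* and *Plin5* stayed, with *Mgll* and *G0s2* added. For genotype none of the 4 reported genes stayed, and *Abhd5*, *Mgll* and *Plin5* were called lower.

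Leaving out 1 library at a time gave 4 to 7 called genes for diet and 1 to 4 for genotype in eWAT, 3 to 4 and 0 to 2 in iWAT, 1 to 4 in eWAT and 1 to 5 in iWAT for *Acod1*-/- against ND, 1 to 2 between depots on ND, 5 to 6 in HFD-fed wild type and 0 to 1 in *Acod1*-/- mice, 2 to 7 for the difference of diet responses and 0 to 0 for that of genotype responses. Signs changed within these ranges for genotype in eWAT of *G0s2* (-0.05 to 0.46) and *Plin5* (-0.19 to 0.09), for diet in iWAT of *Abhd5* (-0.12 to 0.17) and *Plin5* (-0.23 to 0.83), and for genotype in iWAT of *Pnpla2* (-0.13 to 0.03), *Pnpla3* (-0.22 to 0.21), *Abhd5* (-0.24 to 0.18), *G0s2* (-0.19 to 0.10) and *Plin4* (-0.06 to 0.32). The log2 ratio differences changed sign for *G0s2* to *Pnpla2* (-0.34 to 0.07 and -0.08 to 0.23 for genotype in eWAT and iWAT), *Abhd5* to *Plin1* (-0.22 to 0.07, iWAT diet) and *Pnpla3* to *Pnpla2* (-0.21 to 0.31, iWAT genotype).

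Libraries of different groups share replicate numbers, and correlations of same-numbered deviations ran from -0.304 to 0.489. Differently numbered libraries were not correlated for comparison, so these values cannot show whether the numbers pair libraries. Fits other than the replicate block treated libraries as unpaired. The labels do not say whether both depots came from the same mice. With the replicate block 6 genes were called for diet and 4 for genotype in eWAT and 3 and 0 in iWAT, 3 between depots on ND (with *Plin4* added), 8 in HFD-fed wild type mice (with *Abhd5* and *Mgll* added) and 0 in *Acod1*-/- mice, and 7 for the difference of diet responses (with *Lipe* and *Mgll* added). Under the block *G0s2* was not called for diet in iWAT (0.54, adjusted p = 0.119) or in eWAT against ND (0.82, adjusted p = 0.193), and *G0s2* was at 0.27 for genotype in iWAT. Depth limits *Cideb* and *Hsd17b13* in ND-fed iWAT, for which no fold is given, and the p-values measure only the spread between these libraries, which may be technical.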
